A study of Mus musculus with 6 samples.

Results

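The subject is a set of 9 mouse genes that write, erase or read DNA methylation or act beside it: the methyltransferase genes Dnmt1, Dnmt3a and Dnmt3b, the dioxygenase genes Tet1, Tet2 and Tet3, the glycosylase gene Tdg, the reader gene Mbd2 and the histone methyltransferase gene Ezh2. They were chosen by name, and transcripts were summed to genes by their Ensembl identifiers. All 9 were measured among 35905 genes, and all 9 passed the low-count filter that left 13247 genes for the test. They were compared between EO771-tdT-LM2 cells (called LM2 here, 3 libraries) and EO771-tdT-Parental cells (called Parental here, 3 libraries). EO771 cells come from a mammary tumour of a mouse, and both groups carry the genotype label WT and the tag tdT, which the labels do not spell out. Both lines were cultured with 10% serum and collected after 48 h, at about 75% confluence. How LM2 was derived, whether it is 1 clone, and the tag Ac6 in the Parental names are not explained in the labels, nor whether libraries came from separate cultures, so p-values measure the spread between these libraries, which may be technical.

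DNA methylation in mammals sits mostly on cytosines followed by guanine (CpG). Dnmt3a and Dnmt3b place new methyl groups, Dnmt1 copies the pattern to the new strand after replication, and TET enzymes oxidise the methyl group so that Tdg and base excision repair can replace the base. Mbd2 binds methylated CpG as part of the NuRD repressor complex, and Ezh2, the catalytic subunit of Polycomb repressive complex PRC2, methylates histone H3 rather than DNA. Messenger RNA was measured here, and no methylation.

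LM2 libraries held 33922699 to 38182191 estimated counts and Parental libraries 36597892 to 45849019. Across genes, which are not replicates, the log2 levels of libraries of the same line correlated at r = 0.991 to 0.994, and those of different lines at 0.962 to 0.964. The labels call the cells breast cancer cells. Of 13 epithelial markers 6 passed the filter, with Krt8 at 568 CPM in LM2 and 420 CPM in Parental, while Krt18, Krt5, Krt19, Cdh1, Pgr and Gata3 were below 0.2 CPM in both lines. The epithelial adhesion gene Epcam was at 14.97 CPM in LM2 and 0.154 CPM in Parental, and the basal keratin gene Krt14 at 8.47 CPM in LM2 and 1.11 CPM in Parental, and both rose. Erbb2, at 41.4 CPM in LM2 and 53.3 CPM in Parental, and Esr1, at 0.187 CPM in LM2 and 0.537 CPM in Parental, fell. The part of these differences in the results was not tested. Of 9 mesenchymal and fibroblast markers 6 passed the filter. The filament gene Vim was at 4776 CPM in LM2 and 3900 CPM in Parental, and the collagen gene Col1a1 at 1330 and 659 CPM. Fn1 was at 0.868 CPM in LM2 and 0.487 CPM in Parental, and Cdh2, Dcn and Lum were below 0.2 CPM in both lines. The summed level of 9 leukocyte markers was 3.24 to 3.88 CPM in LM2 and 0.276 to 0.549 CPM in Parental, nearly all of it Cd79a, with Ptprc at 0.0745 CPM in LM2 and 0.0651 CPM in Parental.

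Of the 9 genes, Dnmt1, Dnmt3a and Tet3 rose in LM2, Ezh2, Tdg and Tet2 fell, and Dnmt3b, Tet1 and Mbd2 did not pass the test. None switched between off and on. As given below, the call of Dnmt3a was lost when transcript length was taken into account. The authors' deposited table gives Tet2 the opposite sign. The largest change was the fall of Ezh2, 1.56-fold lower, and the smallest that passed was the rise of Tet3, 1.12-fold. The 6 calls of 9 stand beside 62.4% of all tested genes called by edgeR's quasi-likelihood test at a Benjamini-Hochberg adjusted p below 0.05. The 3 higher stand beside 31.4% of all tested genes and the 3 lower beside 31.1%, so these counts are near the background and are not a result about the set. The median absolute log2 fold change was 0.28 over the 9 genes and 0.24 over all tested genes. In bulk RNA, fewer cells that express a gene and less RNA per cell cannot be told apart.

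The start regions of 8 of the 9 genes were found in a RefSeq promoter table on build GRCm38.p6, which differs from the authors' build GRCm39. Those of the largest fall and of the most abundant gene of the set are shown because they differ in CpG, the substrate of these enzymes. Each line gives the 250 bases before the start site on the gene's strand, with every CpG in capitals. The Ezh2 window is chr6:47595031-47595280, minus strand, and the Dnmt1 window, the one of 3 in the table that ends at the start of the main transcript, is chr9:20952980-20953229, minus strand.
Ezh2: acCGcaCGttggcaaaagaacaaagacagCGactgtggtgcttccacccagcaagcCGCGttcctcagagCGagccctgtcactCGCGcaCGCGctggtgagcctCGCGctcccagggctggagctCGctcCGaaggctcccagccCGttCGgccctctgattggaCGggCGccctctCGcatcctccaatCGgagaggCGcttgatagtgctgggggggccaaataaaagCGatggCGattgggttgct
Dnmt1: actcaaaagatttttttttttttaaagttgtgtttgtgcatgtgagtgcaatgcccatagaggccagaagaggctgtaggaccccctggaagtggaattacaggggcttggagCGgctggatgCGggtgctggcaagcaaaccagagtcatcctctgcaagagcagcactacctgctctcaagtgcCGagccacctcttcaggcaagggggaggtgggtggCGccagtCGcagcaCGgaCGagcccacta
The Ezh2 window holds 23 CpG and the Dnmt1 window 7, against a median of 6 over the 32851 windows of the table. The ratio of observed to expected CpG was 0.91 for Ezh2 and 0.38 for Dnmt1, and it was at least 0.6 in 6 of the 8 windows found and in 34.0% of all windows. Over 9837 tested genes the share was 73.9%, taking for each the window from 250 bases before to 50 after a start site with the highest ratio. The 8 genes were scored on a single window of 250 bases each. The shares are therefore only roughly comparable, and the 6 of 8 are not a result about the set. The Tet1 window, one of the 6, lies 22020 bases from the start of that gene's main transcript. The Tet2 window held the most, 51 CpG. These are counts of letters, and methylation there was not measured.

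Levels between genes were compared per length, as deposited TPM summed per gene. In LM2 the order was Dnmt1 (160.6 ± 4.64 TPM, SD, n = 3), Mbd2 (82.0 ± 1.40), Tdg (74.9 ± 5.07), Ezh2 (66.9 ± 0.942), Tet3 (24.5 ± 1.01), Dnmt3a (16.9 ± 1.002), Dnmt3b (9.18 ± 0.951), Tet2 (3.21 ± 0.334) and Tet1 (2.63 ± 0.952). In Parental cells Ezh2 came after Dnmt1, at 103 ± 1.07 TPM, and Mbd2 came after Tdg. In LM2 Tet2 and Tet1 did not differ beyond their spread, with 2.86 to 3.53 and 1.98 to 3.73 TPM. In Parental cells all neighbours in the order were apart. Tet3 made up 77.6% to 82.7% of the summed TPM of the 3 Tet genes in LM2 and 76.1% to 77.4% in Parental. The 3 Dnmt genes summed to 187 ± 4.56 TPM in LM2 and 153 ± 2.002 TPM in Parental, of which Dnmt1 held 86.0% and 84.4%. The Tet sum was 16.3% of the Dnmt sum in LM2 and 18.2% in Parental (both a mean of 3 libraries, no test).

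**Figure D1:**
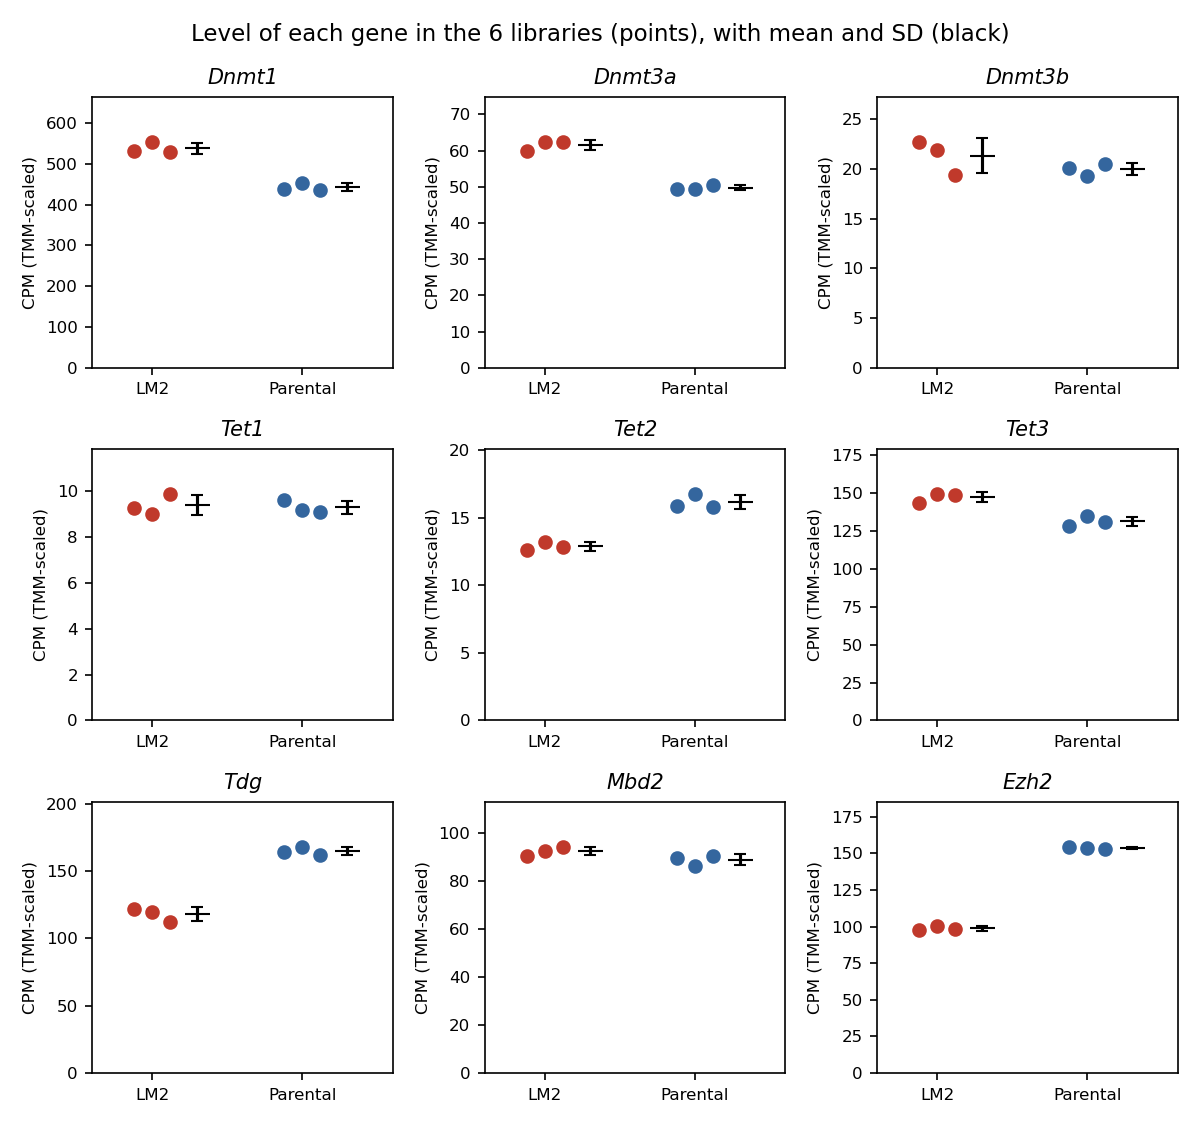
TMM-scaled CPM (y axis from 0) of each gene in the LM2 (red) and Parental (blue) libraries, with the mean and SD in black. The lines do not overlap for Dnmt1, Dnmt3a, Tet2, Tet3, Tdg and Ezh2, and they overlap for Dnmt3b, Tet1 and Mbd2.

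Dnmt1, the maintenance methyltransferase on chromosome 9, was the most abundant of the set and higher in LM2. Its CPM (counts divided by the TMM-scaled library size, the scale of the levels that follow) was 532, 554 and 529 in the LM2 libraries, against 439, 453 and 434 in the Parental libraries. All LM2 libraries lay above all Parental libraries. The log2 fold change was 0.28 ± 0.03 (SE), 1.22-fold, with an edgeR adjusted p = 2.29e-09. Of all tested genes 44.4% had a larger absolute change.

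Dnmt3a, a de novo methyltransferase on chromosome 12, had 59.9, 62.4 and 62.4 CPM in LM2, against 49.3, 49.3 and 50.5 CPM in Parental. The groups do not overlap, and the log2 fold change was 0.31 ± 0.03 (edgeR adjusted p = 6.50e-08). The call held under 14 of the 15 other settings run. With the effective length of the transcripts as an offset the log2 fold change was 0.07 (edgeR adjusted p = 0.481). The abundance-weighted length of Dnmt3a that enters this offset was 5438 ± 369 bases in LM2 and 4642 ± 405 bases in Parental. That length rests on the estimated split of reads between transcripts, and which scale is nearer the true change was not tested. Per length the groups overlap, with 16.8, 15.9 and 17.9 TPM in LM2 and 15.1, 14.5 and 17.6 TPM in Parental.

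Dnmt3b, the other de novo methyltransferase, on chromosome 2, had 22.7, 21.9 and 19.4 CPM in LM2, against 20.2, 19.3 and 20.5 CPM in Parental. LM2 replicate 3 fell within the Parental range, and the other LM2 libraries lay above it. The log2 fold change was 0.09, with a 95% interval of -0.035 to 0.22 and an edgeR adjusted p = 0.202. Without LM2 replicate 3 it was 0.16 and passed (edgeR adjusted p = 0.0262). Of its 31-base words 13.5% occur in transcripts of other genes.

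Among the erasers, Tet3 was the main Tet gene and was slightly higher in LM2. It had 144, 149 and 149 CPM in LM2, against 129, 135 and 131 CPM in Parental, with no overlap. The log2 fold change was 0.17 ± 0.03 (edgeR adjusted p = 1.67e-05), and 63.0% of all tested genes had a larger absolute change.

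Tet2, on chromosome 3, was lower in LM2, at 12.6, 13.2 and 12.9 CPM, against 15.9, 16.7 and 15.8 CPM in Parental. The groups do not overlap, and the log2 fold change was -0.32 ± 0.06, 1.25-fold lower (edgeR adjusted p = 5.45e-05). It stayed between -0.38 and -0.30 under all 15 other settings run. The authors' deposited table gives Tet2 a log2 fold change of 0.31, with the opposite sign. For the other 8 genes the authors' deposited table has the sign found here, with 0.29 for Dnmt1, 0.08 for Dnmt3a, -0.41 for Tdg and -0.63 for Ezh2. That table's direction is not written in it and was read from its closeness to LM2 minus Parental, with a median absolute difference of 0.024 over 10527 shared genes. Opposite signs were found for 99 of the 7346 shared genes called here (1.35%). The cause for Tet2 was not tested.

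Tet1, on chromosome 10, had 9.29, 9.01 and 9.88 CPM in LM2, against 9.60, 9.20 and 9.09 CPM in Parental, and the groups overlap. The log2 fold change was 0.015, with a 95% interval of -0.15 to 0.18 (edgeR adjusted p = 0.883). Transcripts not annotated as protein-coding made up 55.9% of its TPM in LM2 and 60.9% in Parental, and 45.7% and 43.5% of that of Tet2. With protein-coding transcripts alone, an alternative chosen after seeing the data, all 6 calls held.

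Tdg, the glycosylase that removes oxidised methylcytosine, on chromosome 10, was lower in LM2. It had 122, 120 and 112 CPM in LM2, against 164, 168 and 162 CPM in Parental. The groups do not overlap, and the log2 fold change was -0.48 ± 0.03, 1.40-fold lower (edgeR adjusted p = 9.16e-12). Under all 15 other settings run Tdg stayed between -0.52 and -0.42. Of its 31-base words 48.0% occur in transcripts of other genes, so the level is uncertain, and the change is less certain than its SE shows.

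Mbd2, on chromosome 18, had 90.7, 92.8 and 94.4 CPM in LM2, against 89.8, 86.5 and 90.7 CPM in Parental. The log2 fold change was 0.057, with a 95% interval of -0.0067 to 0.12 (edgeR adjusted p = 0.113).

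Ezh2, on chromosome 6, had the largest change of the set. It had 97.7, 101 and 98.1 CPM in LM2, against 155, 154 and 153 CPM in Parental. The groups are far apart for their spread, with SDs of 1.63 CPM in LM2 and 0.745 CPM in Parental. The log2 fold change was -0.64 ± 0.03 (edgeR adjusted p = 5.92e-15), and 17.1% of all tested genes had a larger absolute change. CPM ranges of the lines did not overlap for 6 of the 9 genes, beside 67.0% of all tested genes.

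**Figure D2:**
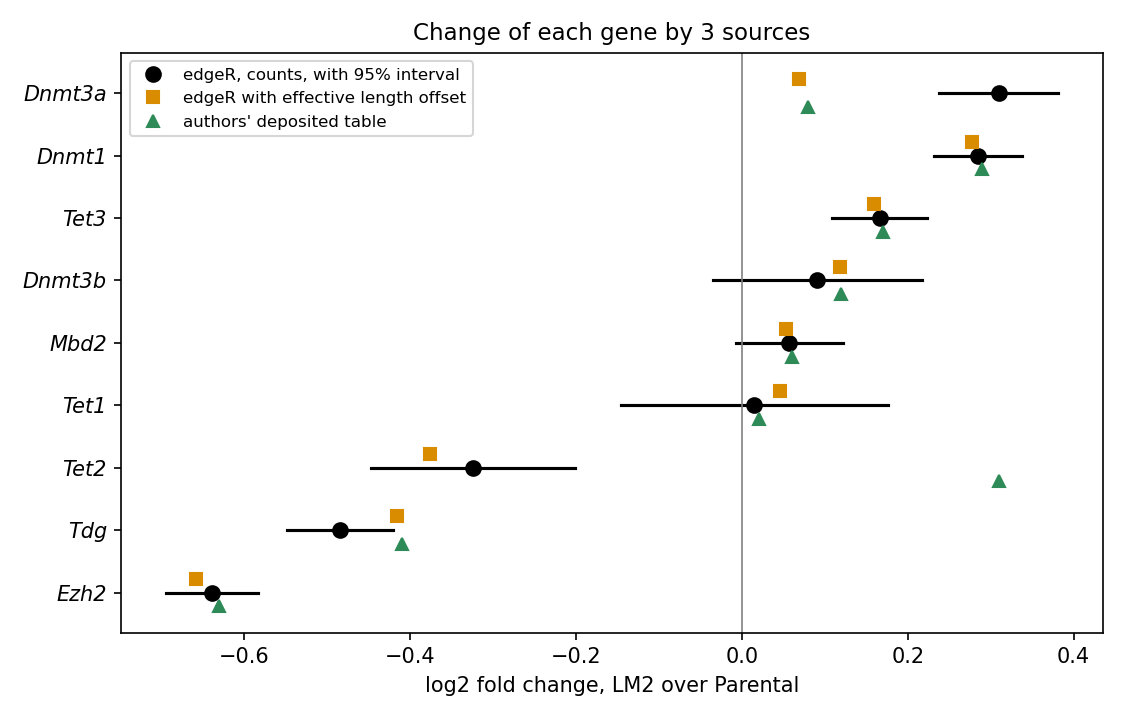
Log2 fold change of LM2 over Parental (x axis) for each gene by 3 sources: edgeR on counts with its 95% interval (black), edgeR with an effective length offset (orange) and the authors' deposited table (green). The sources lie close together except for Dnmt3a, at 0.31, 0.07 and 0.08, and Tet2, at 0.31 in the authors' deposited table and -0.32 and -0.38 otherwise. For Tdg the authors' value, -0.41, lies just outside the 95% interval of -0.548 to -0.421.

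kallisto, the program that made the deposited values, splits reads between transcripts by estimate, and the test does not know the error of that split. Of 93 annotated transcripts of the 9 genes 43 were tested and 10 called by edgeR, 4 higher and 6 lower, beside 17.0% of all 40389 tested transcripts. The main transcript of Dnmt1, Dnmt1-201, was at 126 ± 2.65 TPM in LM2 and 103 ± 1.96 TPM in Parental. Its share of the gene's TPM was 78.6% in LM2 and 79.7% in Parental. Of Ezh2, the transcripts Ezh2-201, Ezh2-202 and Ezh2-205 fell, with Ezh2-201 at 45.7 ± 0.358 TPM in LM2 and 67.3 ± 4.48 TPM in Parental. The call of Ezh2-205 was lost when any library but Parental replicate 2 was left out (edgeR adjusted p of 0.0536 to 0.137), and that of Ezh2-202 without LM2 replicate 2 (0.0553).

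For Tdg the transcripts moved unequally. Tdg-201 was at 28.5 ± 1.82 TPM in LM2 and 42.9 ± 0.854 TPM in Parental, and Tdg-208 at 24.9 ± 1.17 TPM in LM2 and 32.6 ± 0.680 TPM in Parental, and both fell (log2 fold changes -0.62 and -0.42). Tdg-210 had 17.3 ± 1.90 TPM in LM2 and 17.001 ± 0.0997 TPM in Parental, and its share was 23.0% ± 1.09 in LM2 and 17.4% ± 0.613 in Parental. The test of transcript use for Tdg gave an adjusted p = 0.822 by edgeR's diffSpliceDGE, and 0.0331 when transcripts needed at least 1 CPM in 3 libraries.

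For Dnmt3a the longest transcript moved. Dnmt3a-201 was at 6.92 ± 0.953 TPM in LM2 and 4.13 ± 0.725 TPM in Parental, a log2 fold change of 0.72 (edgeR adjusted p = 0.0186), and held 41.2% and 26.2% of the gene's TPM. That call was lost without Parental replicate 1 or 2 or LM2 replicate 2 or 3, with adjusted p between 0.0603 and 0.0748. Of Dnmt3b, Dnmt3b-203 was listed at 0.713, 0.377 and 1.24 TPM in Parental and at no more than 0.000269 TPM in any LM2 library, and was called lower. The estimates for the 2 long Tet2 transcripts varied widely between libraries of 1 line, with Tet2-204 at 0.000986% to 33.9% of the gene in LM2 and 16.6% to 38.6% in Parental.

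Transcript use differed for none of the 9 genes by edgeR's diffSpliceDGE, beside 5.63% of the 8839 genes tested. Unadjusted, 2 of the 9 had p below 0.05, Dnmt3b (0.00525) and Ezh2 (0.0433). Without LM2 replicate 2, Dnmt3b (adjusted p = 0.0450) and Tet2 (0.00543) passed, and without LM2 replicate 3, Dnmt3a (0.0357).

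**Figure D3:**
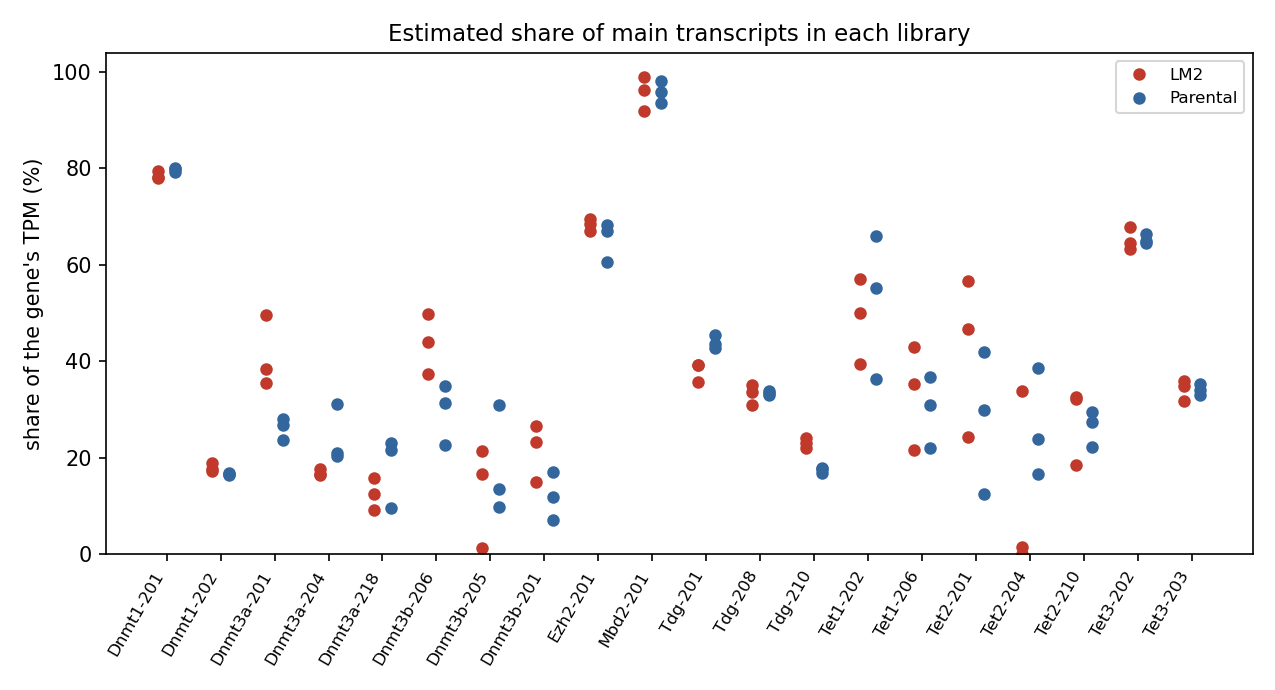
Share of a gene's TPM (y axis, percent) held by tested transcripts with a mean share of at least 15% in either line, in each LM2 (red) and Parental (blue) library, as estimated by kallisto. The shares of Ezh2-201 and Tet3-202 overlap between the lines, and those of Tet1 and Tet2 transcripts scatter widely. The shares of Dnmt3a-201, Tdg-210, Dnmt3b-206 and, by a small margin, Dnmt1-202 are higher in all LM2 libraries. Those of Tdg-201 and Dnmt3a-204 are lower in all LM2 libraries.

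Genes near a member on its chromosome were examined because the median change differed between chromosomes, from -0.33 on chromosome 10 to 0.031 on chromosome 3 among those that hold the 9 genes. Tdg and Tet1 lie on chromosome 10, where 62.8% and 62.9% of the other 661 tested genes were called lower. The 20 tested genes nearest to Tdg had a median log2 fold change of -0.39, a range of -1.13 to 0.34, and 12 called lower and none higher. The 20 nearest to Tet1 had a median of -0.24, with 12 lower and 5 higher, while Tet1 itself was at 0.015.

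Ezh2 and Tet3 lie on chromosome 6, whose other tested genes had medians of -0.18 in either case. The 20 genes nearest to Ezh2 had a median of -0.37, with 14 lower and 2 higher, and the median was -0.17 over the 50 nearest. The 20 nearest to Tet3 had a median of 0.16, beside 0.17 for Tet3 itself, and the median was 0.012 over the 50 nearest. Tet2 fell among neighbours with a median of 0.09, and Dnmt3a, whose rise was lost with the length offset, stood among 14 neighbours with a median of -0.078, on chromosome 12 where 51.4% of the other genes were lower. For 4 of the 9 genes the sign of the neighbours' median was that of the gene. With up to 25 neighbours on each side it was so for 3, as the median around Dnmt1 went from 0.033 to -0.039. The part of the neighbourhood in these changes was not tested.

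**Figure D4:**
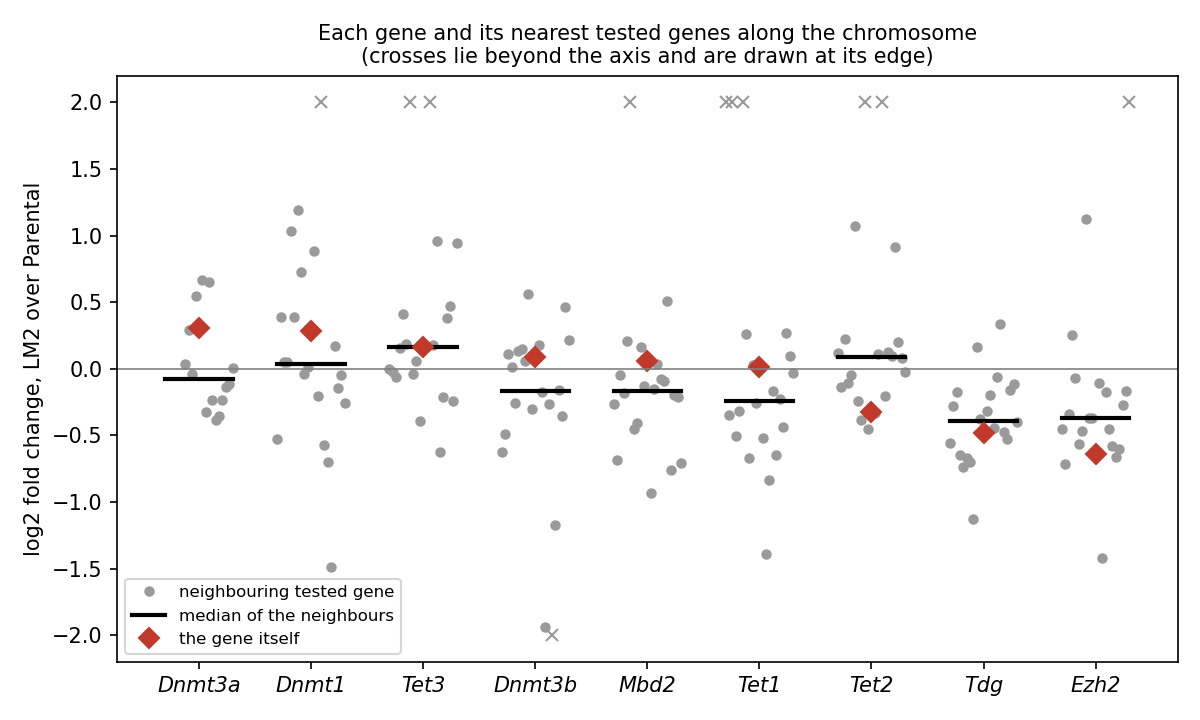
Log2 fold change (y axis) of each gene (red diamond) and of its nearest tested genes along the chromosome (grey, up to 10 on each side), with their median (bar) and with crosses at the edge for genes beyond the axis. Tdg and Ezh2 lie below 0, as do the medians of their neighbours, while Tet2 lies below neighbours whose median is 0.09.

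Other genes of the pathway were taken from lists written from textbook knowledge. Their counts of calls are read beside the 62.4% called, 31.4% higher and 31.1% lower over all tested genes. Of 12 genes for writing and maintenance, the 3 Dnmt genes included, 11 were tested, 6 were called higher and 2 lower, with a median log2 fold change of 0.10 beside -0.0037 over all tested genes. Zfp57, which keeps methylation at imprinted regions in mouse embryos, rose 3.24-fold, to 15.8 ± 1.79 CPM in LM2, against 4.87 ± 0.186 CPM in Parental. Uhrf1, which brings Dnmt1 to half-methylated DNA, was at 332 CPM in LM2 and 307 CPM in Parental, 1.08-fold higher (edgeR adjusted p = 0.000264). With the effective length offset 3 of the list were higher. Of 8 tested genes of the methyl donor cycle 2 were higher and 2 lower, and 1 and 3 with the effective length offset. Mat2a, which makes S-adenosylmethionine, fell to 279 ± 3.37 CPM in LM2, against 337 ± 1.45 CPM in Parental, and Mat2b, its regulatory subunit, had 83.6 and 83.3 CPM and did not pass.

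Of 12 tested genes of oxidation and its cofactors 6 were higher and 3 lower. Idh2, a mitochondrial source of the TET cosubstrate 2-oxoglutarate, rose to 169 ± 3.48 CPM in LM2, against 136 ± 2.36 CPM in Parental, and Cxxc5, a CXXC protein known to bind unmethylated CpG, rose 1.36-fold. Fh1, fumarate hydratase, had 84.2 CPM in LM2 and 85.0 CPM in Parental and did not pass. Of 15 base excision genes 2 were higher and 6 lower, with a median of -0.13. Polb, the repair polymerase that works after Tdg, fell to 15.9 ± 1.14 CPM in LM2, against 25.4 ± 0.844 CPM in Parental (log2 fold change -0.68). The stress genes Gadd45a and Gadd45g, linked to demethylation, rose by 1.13 and 0.54 on the log2 scale, while Gadd45b of the same family fell by 0.43, to 6.56 CPM in LM2, against 8.85 CPM in Parental.

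Of 9 genes of the families that hold the readers of methylated DNA 2 were higher and 3 lower. Not all of them read it: Mbd3 and Mbd6, which are 2 of the 3 lower, are not selective for methylated CpG. The third, Mbd1, which binds methylated CpG, fell by 0.21 on the log2 scale. The 2 higher were Zbtb4 and Zbtb38, which rose by 0.33 and 0.14 on the log2 scale. Zbtb4 had the larger level change, to 39.9 ± 3.22 CPM in LM2, against 31.6 ± 1.18 CPM in Parental. Mbd3, the relative of Mbd2 that forms its own NuRD complex, fell to 147 ± 6.36 CPM in LM2, against 184 ± 2.97 CPM in Parental. Of 14 NuRD genes 5 were higher and 6 lower. The deacetylase Hdac2 fell by 0.49 on the log2 scale and the remodeller Chd3 by 0.42, while the histone-binding Rbbp4, shared with PRC2, rose to 371 ± 1.27 CPM in LM2, against 264 ± 2.59 CPM in Parental.

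Of 13 tested PRC2 and H3K27 genes 5 were higher and 5 lower. Ezh2 had the largest fall among them. Its paralog Ezh1 rose 1.18-fold, to 37.2 ± 0.425 CPM in LM2, against 31.5 ± 0.502 CPM in Parental. The core subunit Suz12 had 127 CPM in LM2 and 130 CPM in Parental and did not pass, and Eed fell by 0.15 on the log2 scale. Kdm6b, which removes the H3K27 mark, rose 1.37-fold.

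Cell cycle genes were listed because the expression of Dnmt1 is known to be coupled to replication. Of 23 S phase genes 15 were lower, 3 (E2f1, Cdc45 and Ccne2) were higher and 5 did not pass, with a summed level of 2931 to 3014 CPM in LM2 and 3388 to 3440 CPM in Parental. Prim1, a subunit of the replication primase, fell to 38.7 ± 0.555 CPM in LM2, against 65.3 ± 1.15 CPM in Parental. The replication helicase gene Mcm5 fell by 0.61 and the nucleotide reductase gene Rrm2 by 0.58 on the log2 scale, and Mcm7 did not pass. The mitotic kinase gene Cdk1 was at 140 CPM in LM2 and 204 CPM in Parental. Of 18 mitosis genes 16 were lower and 1, Cdc20, was higher, with a median of -0.21. Their part in the changes of the 9 genes was not tested.

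**Figure D5:**
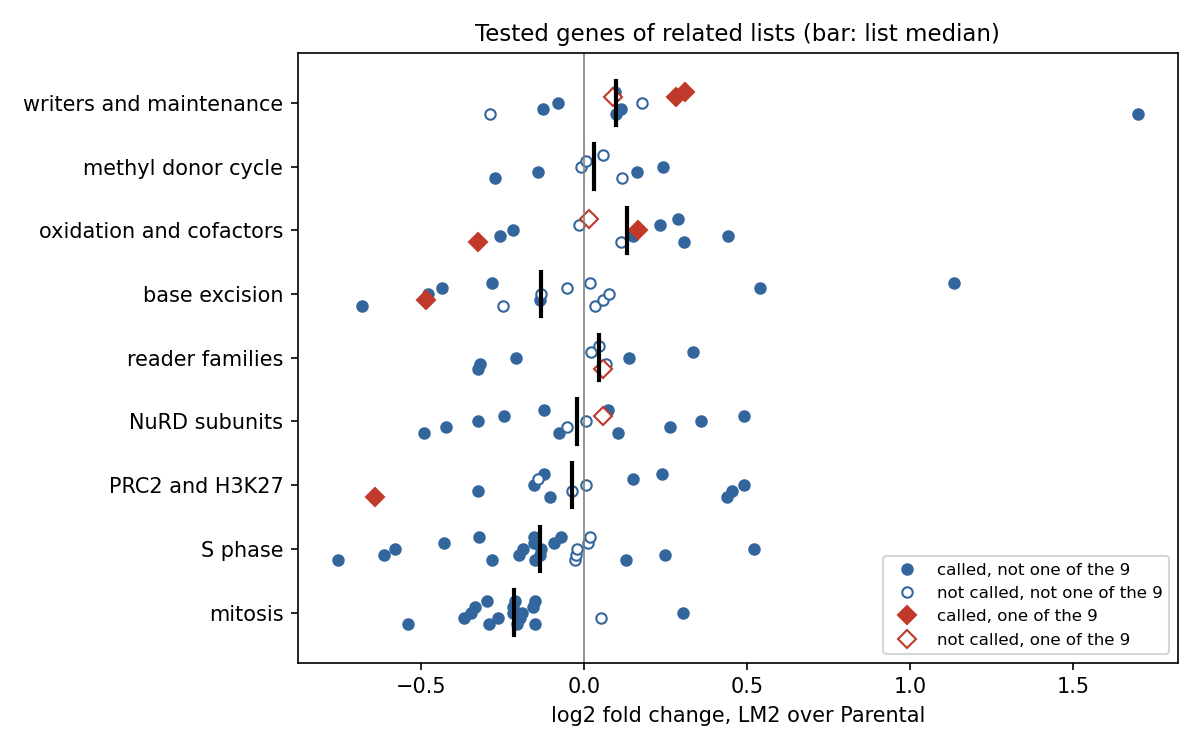
Log2 fold change (x axis) of the tested genes of related lists, filled where called, with those of the 9 genes that belong to a list as red diamonds and a bar at each list's median. Ezh2, at -0.64, lies furthest left of the PRC2 and H3K27 genes, and the mitosis genes lie mostly between -0.4 and -0.1.

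Few genes went from off to on in full. With off set as below 0.1 CPM in each library of 1 line and on as at least 1 CPM in each library of the other, 21 genes were on in LM2 and 1, Gm49361, was on in Parental alone. The most abundant of the 21 in LM2 were the collagen gene Col12a1 (68.8 CPM), the galectin gene Lgals7 (22.4 CPM), the muscle creatine kinase gene Ckm (7.05 CPM), the inflammatory caspase gene Casp1 (4.67 CPM) and Tmem185b (3.85 CPM). Of the 14 of them with a promoter in the RefSeq table, 4 (28.6%) had a CpG ratio of at least 0.6 in a window from 250 bases before to 50 bases after a start site. That share was 73.9% over 9837 tested genes and 21.1% over 6704 protein-coding genes below the low-count filter. The genes were chosen by their counts, and their methylation was not measured.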

How the data were processed

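For each library the authors deposited the estimated counts and TPM of 117486 transcripts, made with kallisto 0.46.2 on build GRCm39 per the submitters' processing notes, and a table of log2 fold changes per gene symbol (edgeR 3.32.1 is listed there). No source used here names the transcript set or the strand setting, so antisense partners cannot be told apart. The deposited TPM is scaled by effective length, in bases, per the file headers.

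Transcripts were matched by Ensembl identifier to GENCODE M21 (GRCm38), used for names, chromosomes and gene order: 116408 (99.1%) matched 35905 genes. The others held at most 0.448% of a library and were left out. Estimated counts were summed per gene, rounded, filtered with filterByExpr, TMM-scaled and tested with edgeR 4.0.16 (R 4.3.3, robust quasi-likelihood, Benjamini-Hochberg over all tested features, threshold 0.05). Transcripts were tested likewise, and their use with diffSpliceDGE. SEs come from the fold change and its F. Tests were tried on simulated data. From each list up to 3 called genes of at least 5 CPM and the most abundant uncalled gene were named by rule (a few of the genes so chosen are not reported here), and of the genes that switch, the 5 most abundant. Uhrf1, Ezh1, Suz12 and Eed were among those added after their values were seen. Genes and lists were chosen with earlier results of these data known. Alternatives, with DESeq2 1.42.0 and limma 3.58.1 among them, are given in the closing section.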

Additional observations from a re-analysis of the deposited data

How the results depend on the processing

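The count of called genes among the 9 stayed between 5 and 7 under all 15 alternatives: other scalings, DESeq2, limma voom, other filters, an effective length offset, a replicate block, protein-coding transcripts only (added after seeing the data) and each library left out. It was 5 with the length offset, where Dnmt3a was lost, and 7 without LM2 replicate 3, where Dnmt3b passed. No gene of the 9 with a call reversed. Replicate numbers did not pair the libraries (correlations of same-numbered deviations of -0.078 to 0.045), and with the replicate block 6 of the 9 and 8250 of all genes were called, against 8272 without it. With the block Ezh2-202 was no longer called (edgeR adjusted p = 0.0668). With the length offset 1 gene of the reader families was higher rather than 2. Called transcripts numbered 7 to 12. Transcript use was called for 1 gene with at least 1 CPM in 3 libraries and for 0 to 2 with a library left out. Genes on in LM2 numbered 53 with off below 0.2 CPM and 10 with on from 2 CPM, and genes on in Parental alone 4 and 0. No scaling moved the median of all genes by more than 0.1. Depth limits Tet1 and Tet2 most, with 304 to 377 and 435 to 491 counts in the LM2 libraries and 334 to 437 and 608 to 722 in the Parental libraries.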

Other observations

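A list of 29 germline and pluripotency genes, many known to be silenced by promoter methylation in somatic cells, was mostly near 0 in both lines. Of these 20 were below the low-count filter, and 11 had no count in any library, among them Mael, Sycp1 and Stk31. Of the 9 tested, 5 were called higher in LM2 and 1 lower, beside 31.4% and 31.1% of all tested genes. Dppa2, Tex101, Brdt and Piwil2, all among the 5, were at 0.089, 0.19, 0.31 and 0.32 CPM in Parental. A gene can pass the filter through the line where it is high, so this split is not a result about the list. With no low-count filter 4 were higher. Tex19.1, a germline gene known as a methylation target in mouse, was at 142 ± 5.88 CPM in LM2 and 146 ± 0.991 CPM in Parental and did not pass, although it passed without LM2 replicate 3 (edgeR adjusted p = 0.0178). Tdrd1, a piRNA pathway gene, fell to 36.1 ± 1.63 CPM in LM2, against 47.8 ± 0.695 CPM in Parental. Dppa4 had 40.4 CPM in LM2 and 37.0 CPM in Parental, and its call was lost without Parental replicate 1 or 3 or LM2 replicate 3 (edgeR adjusted p of 0.0716, 0.0506 and 0.0765), and with the effective length offset (0.163) or no low-count filter (0.0624). Its partner Dppa2, named after its value was seen, had 3.59 CPM in LM2 and 0.0890 CPM in Parental.

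By the root mean square difference of centred log2 CPM over the 6 libraries, the 3 genes closest to Dnmt3a among 9728 were Gabarap (0.0093), Idh2 (0.011) and Virma (0.013). Among those closest to Ezh2 were Hmgb2 (0.021) and Diras1 (0.021). With 6 libraries in 2 lines this likeness is mostly a like difference between the lines.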
